A study of Mus musculus with 12 samples.

Results

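The guanylate-binding protein (Gbp) family was examined in sorted leukemic blasts. Its 8 members Gbp2 to Gbp9 were taken by gene symbol from a table of 24454 genes, and all 8 had a row. The members were chosen by their difference between the genotypes in these same libraries, so their genotype values are given as a description, and counts of calls in that contrast support nothing. Fetal liver cells of wildtype (WT) or STAT3β-deficient (Δβ) mice had been transformed with a retrovirus that carries the leukemia fusion gene MLL-AF9 and a Venus fluorescent reporter. Cells of either genotype were injected intravenously into male NSG mice of 6 to 8 weeks, a strain with the alleles Prkdc scid and Il2rg tm1Wjl that lacks T, B and NK cells but retains myeloid cells. Venus+ blasts were sorted from the spleen (SP) and the bone marrow (BM) of diseased animals, and poly-A RNA was sequenced as 3 replicates for each of the 4 combinations, giving 12 libraries. All groups therefore carried MLL-AF9 and differed in genotype, WT or Δβ, and in organ, with no treatment. Every STAT3β-deficient cell lacked the shorter, alternatively spliced isoform of the transcription factor STAT3 and kept STAT3α. The labels do not say which transformed line or which recipient a replicate came from, so p-values measure the spread between these libraries.

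Guanylate-binding proteins are large GTPases that interferons induce in many cells, interferon-γ most strongly. They assemble on the membranes of pathogen vacuoles and bacteria, where they help to break the vacuole and to expose bacterial products to inflammasomes, the complexes that activate inflammatory caspases. Interferon-induced genes commonly carry GAS sites or interferon-stimulated response elements (ISREs) near their start, and the factor IRF1 binds ISREs.

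Mouse Gbp genes form a cluster on each of 2 chromosomes. In RefSeq on GRCm38.p6, the plus-strand cluster at chr3:142496934-142638008 held Gbp5 (142496934-142522344), Gbp7 (142530336-142550151), Gbp3 (142560016-142573213) and Gbp2 (142620663-142638008) in this order. The minus-strand cluster at chr5:105012513-105346476 held Gbp8 (105012513-105053609), Gbp9 (105076464-105110357), Gbp4 (105115767-105139586) and Gbp6 (105270702-105295871). The 11 rows of the table whose symbol is Gbp and a number included 3 further genes, Gbp2b on chromosome 3 and Gbp10 and Gbp11 on chromosome 5.

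The RefSeq promoter table, 250 bases before to 50 bases after each start site on GRCm38.p6, held the 4 members on chromosome 3, with 2 promoters for Gbp3. Promoters of Gbp4, Gbp6, Gbp8 and Gbp9 were not used here. The motifs searched on both strands were the ISRE core, GAAA, 2 of any base, GAAA, and the GAS motif, TTC, 3 of any base, GAA. An ISRE core stood in a promoter of all 4 members, while 3.44% of all 32851 promoters held one. The stretches around it are shown because this core was found in a promoter of each of the 4 genes, and the bases around it were not compared. All are on the plus strand, the core reads on the reverse strand, and capitals mark it.
Gbp2, chr3:142620594-142620623: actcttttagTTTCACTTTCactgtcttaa
Gbp3, chr3:142559959-142560015: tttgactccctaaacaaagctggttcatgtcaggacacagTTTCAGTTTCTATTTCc
Gbp5, chr3:142496729-142496818: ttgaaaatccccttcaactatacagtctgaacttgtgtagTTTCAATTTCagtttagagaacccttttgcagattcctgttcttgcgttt
Gbp7, chr3:142530243-142530332: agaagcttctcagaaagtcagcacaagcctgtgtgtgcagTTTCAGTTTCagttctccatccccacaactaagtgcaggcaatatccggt
The capitals began 59 bases before the RefSeq start site of that promoter in Gbp2, 45 in Gbp3, 165 in Gbp5 and 53 in Gbp7. In Gbp3 they span 2 overlapping cores, and the second Gbp3 promoter held none. The promoters of Gbp5 and of Gbp7 each held 2 GAS motifs, none overlapping the core, and the other 3 member promoters held none, against 8.30% of all promoters with at least 1. The Gbp2 core lies within an exon of a GENCODE M21 transcript. A match of letters does not show that a factor bound there.

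The clusters differed in how alike their genes are, which bears on how reads can be assigned. Over aligned coding bases, the 6 pairs of members on chromosome 5 were 90.9% to 93.8% identical, the 6 pairs on chromosome 3 were 74.3% to 81.5% identical, and the 16 pairs across chromosomes 72.5% to 79.9%. Gbp6 was 98.4% identical to Gbp10, and 62.3% of the 50-base windows of its transcript also occurred in Gbp10 transcripts. Gbp10 had 0 reads in all 12 libraries, so the values of Gbp6 could hold reads of either gene or lack reads that matched both. Shared windows with any other family gene made up 21.2% of the Gbp8 transcript, 12.8% of Gbp4 and 9.56% of Gbp9, and at most 4.88% of Gbp2, Gbp3, Gbp5 and Gbp7. GENCODE also extends Gbp8 and Gbp9 across Gbp4 by read-through transcripts, so counts of these 3 genes are uncertain where their exons overlap.

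The authors deposited read counts divided by 1 size factor per library, here called normalized read counts. Whole reads were recovered from them, and 9001051 to 13859727 reads per library lay on genes, with 1 read worth 0.775 to 1.17 normalized read counts. Stat3 was at 2349 to 4430 normalized read counts, and at gene level its α and β transcripts cannot be separated. All 9 blast markers fixed for these cells (among them Hoxa9, Meis1, Myb, Mpo and Itgam) had at least 3 reads in every library. Of 9 macrophage markers, 3 did: Adgre1 (1733 to 3880 normalized read counts), Vcam1 (699 to 5511) and Hmox1 (142 to 3925). C1qa, C1qb, C1qc and Mrc1 reached at most 30.8, and Spic and Cd5l stayed at or below 3.42. The Δβ replicates numbered 3 stood apart from the other Δβ replicates for the Gbp family in both organs, and the genotype values are given with and without them. They were picked out by these same Gbp values, so the smaller SEs and the calls without them do not measure precision.

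Gbp2, a member with a prenylated tail that coats pathogen vacuoles, had the widest range of the family. It stood at 20.5, 20.1 and 113 normalized read counts in replicates 1, 2 and 3 of WT SP, against 1974, 2303 and 267 in Δβ SP. In BM it stood at 10.9, 12.4 and 15.1 in WT and at 1301, 1349 and 28.0 in Δβ. Every Δβ library lay above every WT library of its organ, but Δβ replicate 3 was close to the WT range in BM. Δβ minus WT, as a log2 fold change on the scale of log2(normalized read count + 1), came to 4.84 (SE 1.37) in SP and 4.76 (SE 1.37) in BM. Without both Δβ replicates numbered 3 it was 5.84 (SE 0.64) and 6.60 (SE 0.64). The highest library, Δβ SP replicate 2, was 211 times the lowest, WT BM replicate 1.

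Gbp3 was the member with the highest counts in WT blasts. Its normalized read counts were 269, 201 and 270 in WT SP and 1563, 1404 and 407 in Δβ SP. In BM they were 311, 355 and 266 in WT and 850, 806 and 263 in Δβ. The groups did not overlap in SP, whereas in BM Δβ replicate 3 fell below all 3 WT libraries. The log2 fold change was 1.97 (SE 0.52) in SP and 0.87 (SE 0.52) in BM, and 2.59 (SE 0.18) and 1.42 (SE 0.18) without the Δβ replicates numbered 3.

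Gbp7, which joins Gbp2 on vacuoles and takes part in oxidative killing, had the next highest counts. It reached 126, 113 and 259 normalized read counts in WT SP and 1056, 1100 and 252 in Δβ SP. In BM it reached 126, 103 and 113 in WT and 562, 522 and 82.9 in Δβ. The genotypes overlapped in both organs, since Δβ replicate 3 was below the highest WT library in SP and below all WT libraries in BM. Δβ exceeded WT by a log2 fold change of 2.09 (SE 0.73) in SP and 1.35 (SE 0.73) in BM, and 2.79 (SE 0.31) and 2.25 (SE 0.31) without the Δβ replicates numbered 3.

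Gbp5, which promotes inflammasome assembly and is prenylated like Gbp2, was low in WT blasts. Its normalized read counts were 9.12, 10.6 and 31.5 in WT SP and 360, 269 and 74.7 in Δβ SP. In BM they were 11.9, 3.38 and 7.05 in WT and 164, 98.1 and 7.25 in Δβ. All Δβ libraries were higher in SP, and in BM Δβ replicate 3 lay inside the WT range. For Gbp5 the log2 fold change was 3.64 (SE 1.03) in SP and 2.74 (SE 1.03) in BM, and 4.32 (SE 0.61) and 4.06 (SE 0.61) without the Δβ replicates numbered 3.

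Of the members on chromosome 5, Gbp4, Gbp6 and Gbp8 had the lowest means over the 12 libraries. Gbp4 was at 3.42, 2.12 and 5.07 normalized read counts in WT SP and at 96.1, 109 and 20.3 in Δβ SP. In BM it was at 1.98, 1.13 and 0 in WT, which is 2, 1 and 0 reads, and at 84.8, 84.1 and 2.07 in Δβ. Δβ libraries were all above WT libraries in both organs, although in BM replicate 3 exceeded the highest WT library by less than 1 read's worth. As a log2 fold change this was 3.80 (SE 1.17) in SP and 3.93 (SE 1.17) in BM, the latter against WT libraries that together held 3 reads. Without the Δβ replicates numbered 3 it was 4.56 (SE 0.57) and 5.53 (SE 0.57).

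Gbp6 was at 3.42, 0 and 13.2 normalized read counts in WT SP and at 183, 183 and 18.1 in Δβ SP. In BM it was at 7.94, 0 and 2.01 in WT and at 73.9, 77.1 and 1.04 in Δβ. The groups were separate in SP and overlapped in BM. Gbp6 thus had a log2 fold change of 4.44 (SE 1.55) in SP and 2.93 (SE 1.55) in BM, and of 5.53 (SE 1.14) and 4.67 (SE 1.14) without the Δβ replicates numbered 3.

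Gbp8 was the lowest member, with a mean of 9.26 over the 12 libraries, and was the single member below the minimum mean of 10 set for the fit. It was at 4.56, 4.24 and 2.03 normalized read counts in WT SP and at 20.2, 29.1 and 3.20 in Δβ SP. In BM it had no read in any WT library and 32.6, 15.2 and 0 in Δβ. The Δβ BM mean was at least 5.10-fold above 3 reads per WT library, the floor used where a group had no read, and at least 7.65-fold above it without Δβ replicate 3.

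Gbp9, which is also found on pathogen vacuoles, differed from the other members in SP. It was at 256, 92.2 and 23.3 normalized read counts in WT SP and at 124, 129 and 40.6 in Δβ SP. In BM it was at 28.8, 7.89 and 26.2 in WT and at 93.5, 120 and 10.4 in Δβ. Its highest value of all 12 libraries was in WT SP replicate 1, and the genotypes overlapped in both organs. The log2 fold change was 0.07 (SE 1.02) in SP and 1.39 (SE 1.02) in BM, where Gbp3 and Gbp7 were at 0.87 and 1.35. Without the Δβ replicates numbered 3 it was 0.61 (SE 0.88) and 2.47 (SE 0.88).

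**Figure D1:**
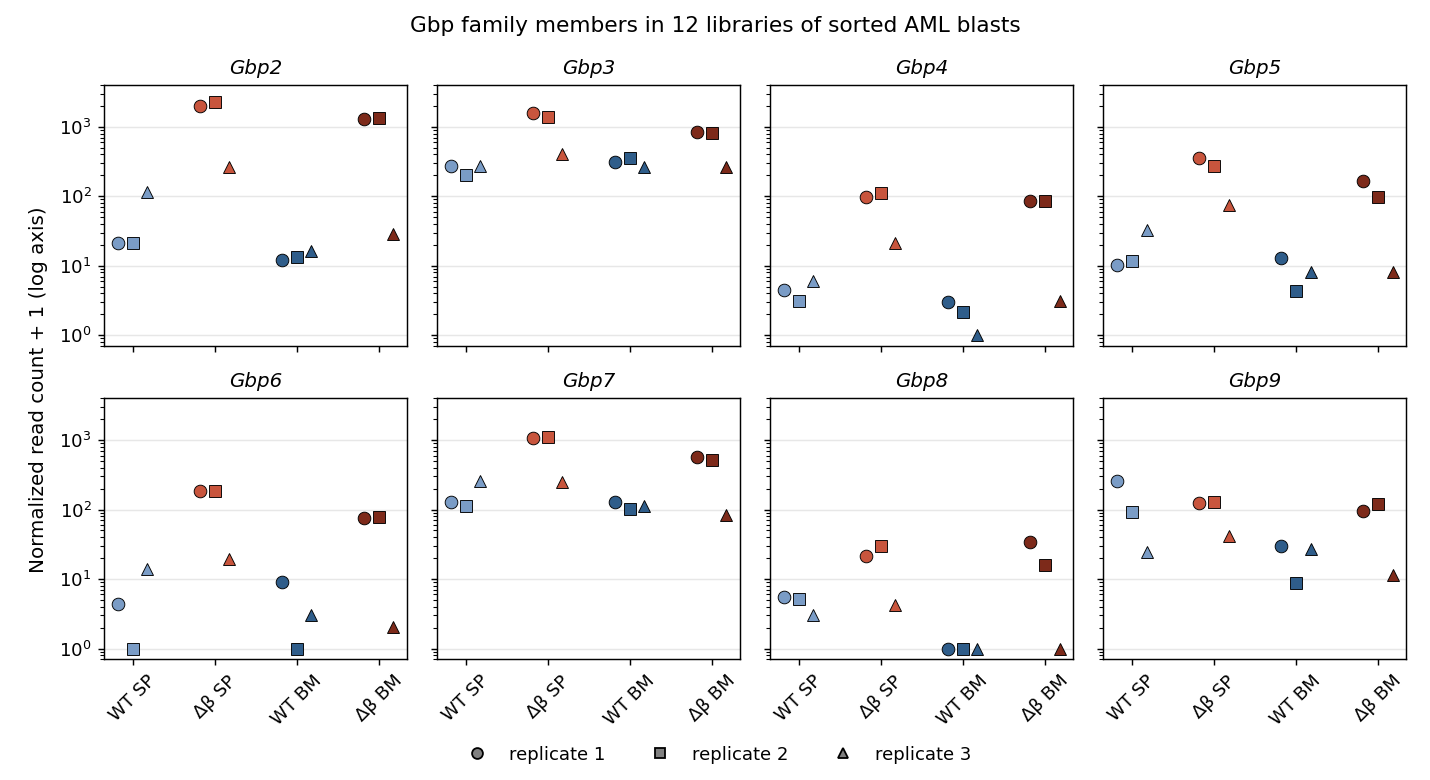
Normalized read count plus 1 on a log axis for each of the 8 members by genotype and organ, with 1 symbol per library (circle, square and triangle for replicates 1, 2 and 3). Δβ replicates 1 and 2 lie together at the top for all members but Gbp9, for which WT SP replicate 1 at 256 is highest, and Δβ replicate 3 lies well below them in both organs.

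Δβ replicate 3 was low for every member. Relative to the mean of Δβ replicates 1 and 2, it ranged from 0.0993 for Gbp6 to 0.321 for Gbp9 in SP. In BM it ranged from 0 for Gbp8 and 0.0137 for Gbp6 to 0.318 for Gbp3. Its Rn45s share, 0.264% of reads in SP and 0.655% in BM, was within the range of 0.178% to 2.48% over all libraries, and so was its depth. The summed stroma markers were 233 and 544 normalized read counts in Δβ SP and BM replicate 3, against 31.0 to 60.9 in the other Δβ libraries and 33.0 to 233 across the WT libraries. Of these 5 genes, Pdgfrb alone gave 232 and 529, and Col1a1, Col1a2, Cxcl12 and Lepr did not exceed 9.32 in those 2 libraries. Blast markers differed there too. Hoxa9 was at 3410 and 3401, against 1237 to 2335 in the other Δβ libraries, and Hoxa10 at 988 and 1222, against 344 to 577. Csf3r was lower, at 1073 and 1103 against 1246 to 2224. Meis1 and Itgam lay within the range of the other Δβ libraries, and Ptprc, Myb, Mpo and Kit did so in SP only. The part of these cells or genes in the result was not tested. In bulk RNA, fewer expressing blasts and less RNA per blast cannot be told apart.

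T and NK cell markers were also compared, since these cells make interferon-γ. Summed over 5 genes they reached at most 16.2 normalized read counts in WT SP and at most 1 read in WT BM. Δβ libraries held 0 to 102 in SP, and 2.34 to 266 in BM. The highest values were in the 2 Δβ replicates numbered 1, with Cd3e, Cd3g, Cd4 and Cd8a between 17.1 and 103 there. The sums were 102, 0 and 25.6 in Δβ SP replicates 1, 2 and 3, where Gbp2 was at 1974, 2303 and 267. Ifng itself did not exceed 10 reads in any library. It had 3.10, 0 and 3.20 normalized read counts in replicates 1, 2 and 3 of Δβ SP, and 10.9, 0 and 0 in Δβ BM. The part of such cells in the Gbp values was not tested.

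Of the 7 members tested, limma called 0 between the genotypes at an adjusted p under 0.05 in SP, where it called 0.105% of 11476 genes, and 0 in BM, where it called 0.0697%. On the recovered reads, edgeR called 0 members in either organ (0.0349% and 0.0697% of genes), and DESeq2 called 6 in SP (3.99%) and 3 in BM (0.323%). Without both Δβ replicates numbered 3, limma called 5 members in SP (0.2%) and 5 in BM (0.227%). Δβ libraries lay above WT libraries without overlap for 5 of the 7 tested members in SP (7.92% of genes) and for 2 in BM (3.5%). The members were selected on this contrast, so nothing is read from these counts.

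The members were not chosen by their difference between organs. The choice rested on the same libraries, so the organ comparison is not independent of it. The organ comparison asks whether blasts of 1 genotype carried more Gbp RNA in SP or in BM. In WT blasts, Gbp2, Gbp5, Gbp7 and Gbp9 had a log2 fold change of SP against BM above 0, as 50% of all genes did. Gbp4 and Gbp6 passed the minimum mean through the Δβ libraries, and their WT values of 1.24 and 0.41 rest on 0 to 13 reads per library. In Δβ blasts Gbp2, Gbp3, Gbp5, Gbp7 and Gbp9 were above 0, as 50.4% of all genes were. Gbp4 and Gbp6 were too, and the median of the 7 tested members was 1.19. Gbp2 was 1.44 (SE 1.37) higher in SP in WT blasts and 1.53 (SE 1.37) in Δβ blasts. Gbp5 was 1.02 (SE 1.03) and 1.92 (SE 1.03) higher, and Gbp7 0.45 (SE 0.73) and 1.19 (SE 0.73). Gbp3 was the exception in WT, with -0.33 (SE 0.52), and 0.77 (SE 0.52) in Δβ. Without both Δβ replicates numbered 3, the 7 members were 0.25 to 1.29 higher in SP in Δβ. Without Δβ BM replicate 3 alone, Gbp2 was at -0.31, Gbp4 at -0.49 and Gbp9 at -0.29.

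None of these differences passed the test. In limma, with Benjamini-Hochberg adjustment over 11476 genes, 0 of 7 members were called in WT and 0 in Δβ, where 0% of all genes were called in each. The smallest adjusted p-values from limma were 0.604 in WT, for Gbp9, and 1 in Δβ. In this fit, without pairing, no member reached an unadjusted p under 0.05. With the replicate number as a block, limma gave an unadjusted p under 0.05 for Gbp2 and Gbp9 in WT (9.1% of genes). In Δβ it did so for Gbp2, Gbp3, Gbp5 and Gbp7 (2.87% of genes), and for Gbp6, which passed the minimum mean through the Δβ libraries. After adjustment 0 were called. Same-numbered WT libraries did not deviate together, so the data give no ground for the block in WT. edgeR called 0 members and 0 genes in both, and DESeq2 called 0 members where it called 0.969% of genes in WT and 0.0175% in Δβ. Without overlap of the groups, SP exceeded BM for Gbp2 and Gbp4 of the tested members in WT (5.66% of genes) and for 0 in Δβ (2.92%). For Gbp4 the closest libraries held 2 reads each and differed only by their size factors. Gbp8, not tested, was also separate in WT, at 2.03 to 4.56 against 0.

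**Figure D2:**
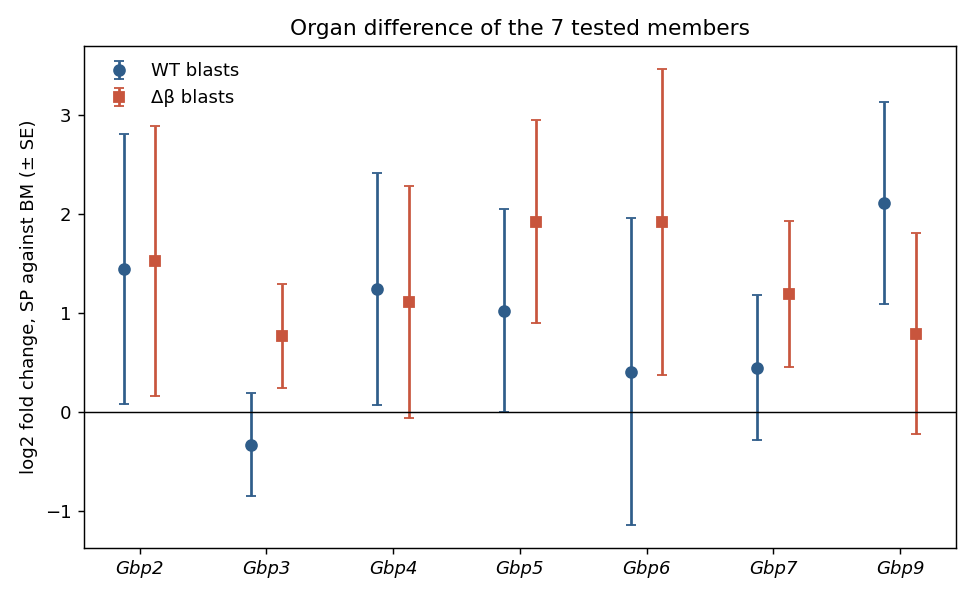
Log2 fold change of SP against BM for the 7 tested members, with bars of 1 standard error from limma, in WT blasts (circles) and Δβ blasts (squares), 3 libraries per group. All points but Gbp3 in WT, at -0.33, are above 0, and the bars cross 0 for several members, among them Gbp6 and Gbp7 in WT and Gbp4 and Gbp9 in Δβ.

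Same-numbered libraries of both organs deviated together in Δβ blasts but not in WT blasts. They were therefore also read number by number in Δβ. At all 3 numbers SP was above BM for Gbp2, Gbp3, Gbp5, Gbp7 and Gbp9, which held for 15.7% of all genes. It also held for Gbp4 and Gbp6, which passed the minimum mean through the Δβ libraries and are not set against that share. The members move together and are not independent of each other. For Gbp3 the SP value was 1.84, 1.74 and 1.55 times the BM value at numbers 1, 2 and 3, and for Gbp7 it was 1.88, 2.11 and 3.04 times. For Gbp2 it was 1.52, 1.71 and 9.54 times, and for Gbp5 2.19, 2.74 and 10.3 times. For Gbp6 it was 2.47 and 2.37 times at numbers 1 and 2, and 17 reads against 1 read at number 3. The ratios were smaller for Gbp4, at 1.13 and 1.29 times at numbers 1 and 2, with 19 reads against 2 reads at number 3. For Gbp9 they were 1.33, 1.07 and 3.92 times. The ratio was larger at number 3 for Gbp2, Gbp5, Gbp7 and Gbp9 and not for Gbp3. Gbp8 was lower in SP than in BM at number 1, with 0.618 times.

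Gbp9 had the widest organ difference in WT blasts, with a log2 fold change of 2.11 (SE 1.02, adjusted p = 0.604 from limma) for SP against BM and 0.79 (SE 1.02) in Δβ blasts. It was 1.30 without WT SP replicate 1, and 3.00 without WT SP replicate 3 (adjusted p = 0.0979 from limma). The 9 macrophage markers summed to 8573, 6083 and 3004 normalized read counts in WT SP replicates 1, 2 and 3, in the same order as Gbp9 (256, 92.2 and 23.3). In WT BM they summed to 8365, 8205 and 5735, where Gbp9 was at 28.8, 7.89 and 26.2. Adgre1, Vcam1 and Hmox1 led these sums. Of the blast markers, Ptprc (20833, 14695 and 6066) and Itgam (26293, 21981 and 10941) also fell over WT SP replicates 1, 2 and 3. Hoxa9, Hoxa10, Myb and Kit rose over these replicates, and Meis1, Mpo and Csf3r did neither. The part of macrophages in the Gbp9 values was not tested.

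Whether the genotype difference itself differed between organs was tested as an interaction. limma and edgeR called 0 of 7 members and 0% of genes, and DESeq2 called 0 members and 0.0262% of genes, with no member at an unadjusted p under 0.05 in limma without pairing. The difference of the log2 fold changes, SP minus BM, was 1.51 (SE 2.19) for Gbp6, 1.10 (SE 0.74) for Gbp3, 0.90 (SE 1.45) for Gbp5, 0.08 (SE 1.93) for Gbp2 and -1.32 (SE 1.44) for Gbp9. Without both Δβ replicates numbered 3 it was -0.76 for Gbp2 and 0.26 for Gbp5. With the replicate number as a block, the value for Gbp3 had an SE of 0.25 and an unadjusted p under 0.05 (3.67% of genes), with an adjusted p of 0.854 from limma, and 0 members were called. This block also joined same-numbered WT libraries, which did not deviate together.

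Levels of different members can be compared only per length of transcript. In transcripts per kb of GENCODE exon, scaled to 1 total over all matched genes (TPM), the 8 members of WT blasts summed to 44.8 ± 14.5 (SD, n = 3) from spleen and 41.4 ± 7.59 from marrow. For Δβ blasts the sums were 402 ± 256 and 219 ± 156, from 529, 570 and 107 in replicates 1, 2 and 3 from spleen and 298, 318 and 39.3 from marrow. Gbp3 was the most abundant member in WT blasts, with 49.9% ± 5.64 of the sum in SP and 75.1% ± 5.24 in BM (SD, n = 3). Gbp2 made up 12.1% ± 10.4 and 4.09% ± 1.04 there. In Δβ blasts Gbp2 made up 46.7% ± 10.3 in SP and 40.4% ± 26.3 in BM, and Gbp3 32.5% ± 7.96 and 42.2% ± 26.9. Δβ BM replicate 3 had 73.3% Gbp3 and 10.1% Gbp2, inside the WT BM range for Gbp3 (71.4% to 81.1%) and above it for Gbp2 (3.32% to 5.27%). Gbp2, Gbp3 and Gbp7 together held 68.0% to 98.4% of the sum in every library. The lowest of these shares was in WT SP replicate 1, where Gbp9 held 29.8%.

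**Figure D3:**
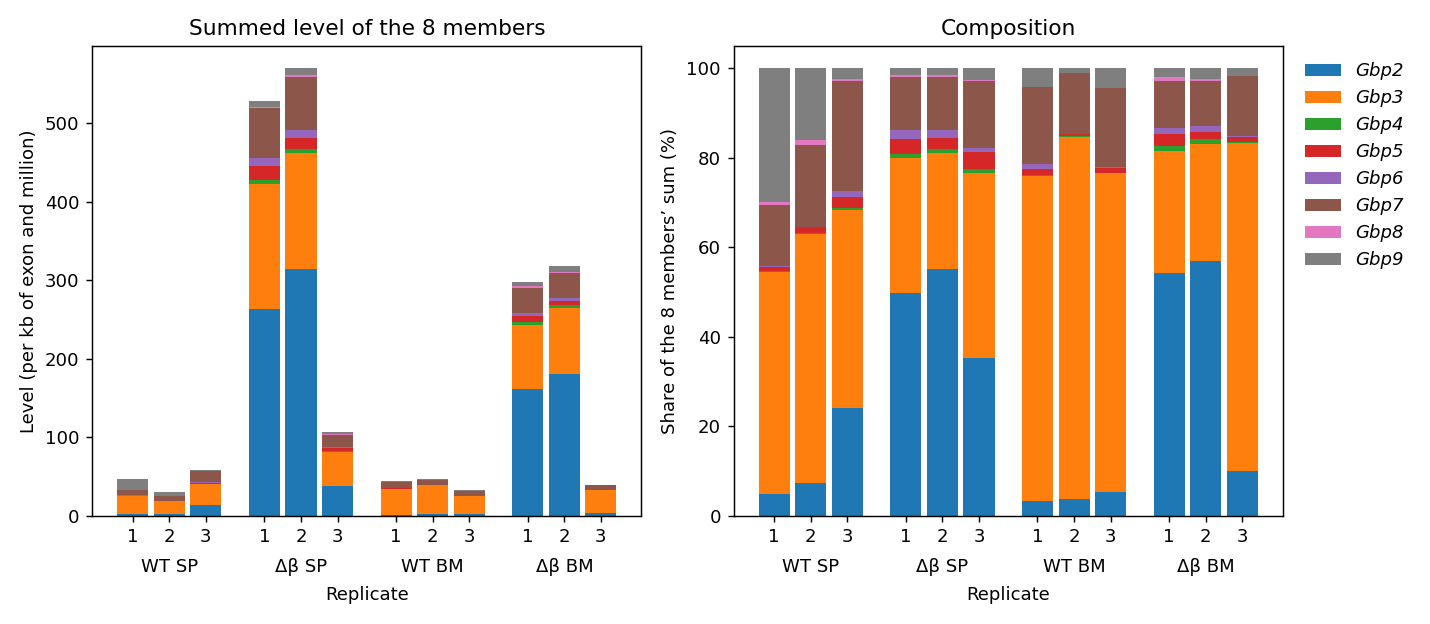
Stacked bars for each of the 12 libraries, left the level of each member per kb of exon (TPM), right the share of each member in the sum of the 8 (%). Gbp3 holds the largest share in all WT libraries and in both Δβ replicates numbered 3, and Gbp2 in Δβ replicates 1 and 2 of both organs.

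By level per length the order was Gbp3, Gbp7, Gbp9, Gbp2, Gbp5, Gbp8, Gbp6, Gbp4 for WT SP and Gbp3, Gbp7, Gbp2, Gbp9, Gbp5, Gbp6, Gbp4, Gbp8 in WT BM. In Δβ SP it was Gbp2, Gbp3, Gbp7, Gbp5, Gbp6, Gbp9, Gbp4, Gbp8, and in Δβ BM Gbp2, Gbp3, Gbp7, Gbp9, Gbp5, Gbp6, Gbp4, Gbp8. Neighbours did not overlap over replicates for Gbp3 and Gbp7, Gbp2 and Gbp5, and Gbp5 and Gbp8 in WT SP, and for Gbp3 and Gbp7 and Gbp7 and Gbp2 in WT BM. All other neighbours, and all in Δβ blasts, overlapped. Among all matched genes, the mean level of Gbp2 stood at the 61.3th percentile in WT SP and the 96.3th in Δβ SP, and that of Gbp3 at the 73.4th and 92.7th. These are levels, not differences, and exon lengths of Gbp8 and Gbp9 include the read-through transcripts across Gbp4.

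The members' deviations from their group means were compared between genotypes. Over the 6 Δβ libraries Pearson's r was 0.917 to 0.999 for the 21 pairs of tested members. These 6 points are 2 high libraries and 1 low library in each organ, so the values describe Δβ replicate 3 against the others. Over the 6 WT libraries r ranged from -0.767 to 0.942. Gbp2 and Gbp7 had the highest value, and in WT SP both were highest in replicate 3. Gbp9 had a negative r with all 6 other members in WT (-0.767 to -0.0585) and 0.919 to 0.996 in Δβ. SP and BM libraries of a number may share an animal, so no p-value is given.

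**Figure D4:**
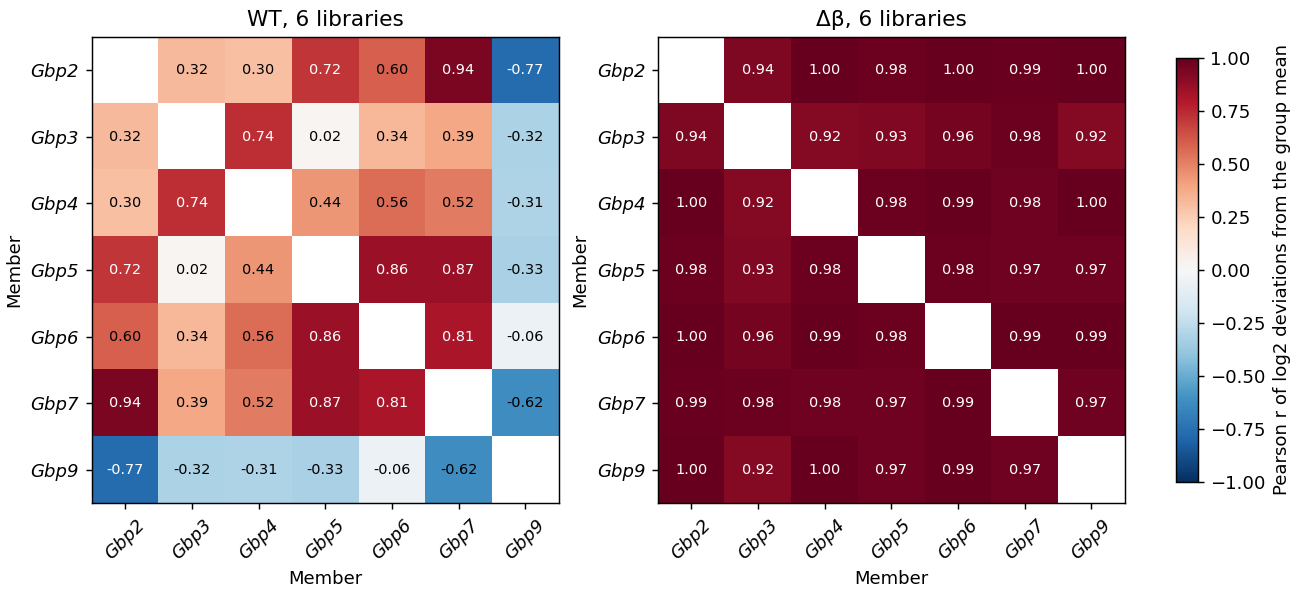
Pearson's r between tested members, over deviations of log2(normalized read count + 1) from the group mean, in the 6 WT libraries (left) and the 6 Δβ libraries (right), color scale from -1 to 1. All Δβ values are at or above 0.917, and the Gbp9 row is negative in WT.

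By the rule set for likeness, the genes outside the family whose log2 values followed the mean of the 7 tested members most closely over the 12 libraries included Nlrc5 (r = 0.986), Tap1 (0.979), H2-M3 (0.966), Irgm1 (0.965), H2-K1 (0.964), Igtp (0.959), Tgtp2 (0.958), Psmb9 (0.955) and Serpina3f (0.954). Of 11468 genes, 23 had an r above 0.9. Tgtp2 and Serpina3f passed the minimum mean through the Δβ libraries, as Gbp4 and Gbp6 did. Nlrc5 is the activator of class I antigen presentation genes, and Tap1, H2-M3, H2-K1 and Psmb9 act in that presentation. Nlrc5, Tap1 and H2-M3 were also among the 10 most alike on deviations from the group means (0.972, 0.955 and 0.954), where Smad1 (0.975) and Coa6 (0.972) came first. The 12 points fall largely into 4 high Δβ libraries and the rest, and they share these libraries and their scaling.

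The 3 family genes outside the members had few reads. Gbp2b had 0 or 1 read in each WT library, 58, 59 and 2 reads in the Δβ SP libraries and 26, 34 and 0 in the Δβ BM libraries. It thus had the same high and low libraries as Gbp2, its neighbour, and its BM mean was at least 7.25-fold above 3 reads per WT library, or at least 10.9-fold without Δβ replicate 3. Its promoter also held an ISRE core. Gbp11 did not exceed 1 read.

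Genes that act with the family were read from 4 lists. Of 16 tested genes of interferon signaling (receptors, Janus kinases, STAT and IRF factors and feedback genes), limma and edgeR called 0 in any comparison. Irf1, a factor that acts on interferon-induced genes, was at 2396, 2145 and 1034 normalized read counts in Δβ SP and at 2072, 1499 and 681 in Δβ BM, against 586 to 1223 and 564 to 759 in WT. At an unadjusted p under 0.05 from limma, 2 of the 16 were higher and 2 lower in Δβ SP, and 0 in BM, against 14.9% and 2.59% of all genes in either direction. Irf1 was among the higher. The 2 lower were Ifngr1 and Jak1, with log2 fold changes of -0.56 and -0.43 in SP, and 0.01 and 0.10 in BM. Between organs, 3 of the 16 were higher in SP in WT and 0 in Δβ, against 8.27% and 1.77% of all genes.

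The second list held the immunity-related GTPases, which act with Gbp proteins on vacuoles, and the autophagy genes that direct both families there. limma and edgeR called 0 of its 12 tested genes in any comparison. At an unadjusted p under 0.05, 5 were higher and 2 lower (Atg7 and Map1lc3b) in Δβ SP and 5 higher in Δβ BM (14.9% and 2.59% of all genes), and 0 had such a p between organs. The 5 higher genes were Irgm1, Irgm2, Igtp, Tgtp2 and Gm12250, and DESeq2 called 4 of them in SP, all but Tgtp2. Tgtp2 passed the minimum mean through the Δβ libraries, with means of 2.06 normalized read counts in WT SP and 0 in WT BM. Irgm2, a regulator of the group, was at 676, 804 and 266 normalized read counts in Δβ SP and at 104 to 173 in WT SP. Gm12250 was at 527, 581 and 140 in Δβ SP and at 34.2 to 59.4 in WT SP. The autophagy genes of this list had log2 fold changes between -0.73 and -0.05 in SP and between -0.20 and 0.04 in BM.

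Of 9 tested inflammasome and pyroptosis genes, limma and edgeR called 0 in any comparison. Δβ against WT, their median was -0.18 on the log2 scale in SP and -0.01 in BM, and 0 had an unadjusted p under 0.05. Between organs, 8 of 9 were above 0 in WT (50% of all genes) and 8 in Δβ (50.4%). In WT, 4 had an unadjusted p under 0.05 from limma (8.27% of all genes in either direction), and 0 in Δβ (1.77%). DESeq2 called Casp4 and Il1b in WT (0.969% of genes). Il1b was at 1077, 539 and 67.0 normalized read counts in WT SP replicates 1, 2 and 3, and at 13.5 to 63.4 in WT BM. Casp4, the caspase that senses bacterial lipopolysaccharide and acts with Gbp proteins, was at 438 to 468 normalized read counts in WT SP and at 174 to 203 in WT BM. Its difference between organs was 1.29 on the log2 scale in WT and 0.29 in Δβ. The 6 genes that prenylate and process CAAX proteins such as Gbp2 and Gbp5 had no call by any of the 3 tools. Δβ against WT, the median was 0.08 on the log2 scale in SP and -0.0042 in BM, and Zmpste24 alone had an unadjusted p under 0.05, with -0.62 in BM.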

How the data were processed

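Members and gene lists were chosen with earlier results of these data known. Per the labels, FastQC, STAR, featureCounts and DESeq2, without versions, made the table, and the builds GRCm38 and mm10 are named. The authors deposited for each gene and library a signal value, a read count divided by 1 size factor. Dividing by the value of 1 read gave whole reads for 100% of values (within 0.001 reads). In 6 further columns no sample is described, and they were left out. Depth was 9001051 to 13859727 reads per library. Intervals and floors (3 reads) cover counting error only.

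limma 3.58.1 (R 4.3.3, eBayes with trend) was fitted to log2(value + 1) of 11476 genes whose mean reached 10, fitting 4 group means and Benjamini-Hochberg adjustment, called at 0.05. edgeR 4.0.16 (quasi-likelihood) and DESeq2 1.42.0 ran on recovered reads. Named genes were all family rows, the lists, and the 10 genes most alike; other genes named beside a result were chosen after their values were seen. Levels per kb used GENCODE M21 exons, found through the Entrez gene for 21335 genes and the symbol for 2760, with 359 unmatched. Coding bases were aligned with Biopython 1.88.

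The pairing check correlated deviations from group means across genes. Same-numbered libraries of both organs had r of 0.664, 0.608 and 0.634 in Δβ, so the numbers were taken to pair there, from the data alone. In WT they had -0.00936, -0.039 and -0.237, and WT and Δβ libraries of an organ -0.166 to 0.202. 1 gene that these rules select is not reported here.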

Additional observations from a re-analysis of the deposited data

How the results depend on the processing

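In the organ and interaction comparisons 0 members were called under each alternative run (a minimum mean of 50 left out Gbp4 and Gbp6, and the 6 libraries of a contrast give no interaction): pseudocounts of 0.25 and 4, no filter, a minimum mean of 50, trimmed-mean and quantile scaling, no trend, edgeR, DESeq2, the 6 libraries of the contrast alone, the replicate block, the fold minimum of 1 on the log2 scale, each library left out, and both Δβ replicates numbered 3 left out. With the replicate number as a block, 0 members were called in every comparison, and the organ difference in Δβ of Gbp3 was 0.77 (SE 0.17). Between genotypes the block joined WT and Δβ libraries of the same organ and number, a pairing that neither the labels nor the pairing check gave. That block moved all genes called between genotypes from 12 to 1 in SP and from 8 to 1 in BM, and changed no member's call. Nothing is read from it. The genotype comparison, in which limma called 0 members, gave 6 in SP (3.99% of genes) and 3 in BM (0.323%) with DESeq2. Without both Δβ replicates numbered 3, limma gave 5 in SP (0.2%) and 5 in BM (0.227%). With 1 library left out it gave 0 to 3 in SP, the 3 without WT SP replicate 3, and 0 in BM. Shares over all genes are not given for these last runs, and nothing is read from any of these counts. For Gbp4 in BM the log2 fold change was 5.61 with edgeR and 5.78 with DESeq2.

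Directions of differences that were not called turned as follows, and the cause was not tested. The genotype difference of Gbp9 in SP (0.07) was -0.82 without WT SP replicate 3 and 0.88 without WT SP replicate 1. The interaction of Gbp2 (0.08) was -1.22 with edgeR and with DESeq2 and -0.76 without both Δβ replicates numbered 3, and -1.76 to 1.08 with 1 library left out. That of Gbp4 (-0.13) was 0.26 with a pseudocount of 4 and -1.73 to 0.67 with 1 library left out. With 1 library left out it was -0.42 to 1.74 for Gbp5, -0.23 to 2.60 for Gbp6 and -0.15 to 1.44 for Gbp7, each negative only without Δβ BM replicate 3. The organ difference in Δβ was -0.31 to 2.52 for Gbp2, -0.49 to 1.91 for Gbp4 and -0.29 to 1.42 for Gbp9, negative without Δβ BM replicate 3, and in WT -0.51 to 1.40 for Gbp6, negative without WT SP replicate 3 or WT BM replicate 2. With the longest transcript as length, 8 of 8 members kept their rank in Δβ SP and WT BM, 6 in WT SP and 4 in Δβ BM. WT counts of Gbp4, Gbp6 and Gbp8 of 0 to 13 reads limit their fold changes.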
